A study of Mus musculus with 4 samples.

Results

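The tumour necrosis factor (TNF) superfamily, the TRAF adaptors and the NF-κB factors were described in macrophages grown from mouse bone marrow and exposed to the cytokine IL-4 for 24 h. Members were chosen by gene symbol, with earlier results of these data known and a symbol fitting the rule left out. They are symbols beginning with Tnfsf, Tnfrsf, Tnfaip, Nfkb or Ikbk, or with Traf and a digit, together with Tnf, Rel, Rela and Relb. This gave 64 of the 23259 symbols with a value: 12 ligands, 19 receptors, 10 TRAF genes, 8 TNF-induced proteins, 4 IKK genes, 6 NF-κB inhibitors or regulators and 5 NF-κB subunits. Macrophages of 2 Sema6D-/- libraries were set against those of 2 wild type libraries, all from C57BL/6 mice aged 7 weeks and all given IL-4, with no library without IL-4 among the 4. In Sema6D-/- mice both copies of the gene of the membrane semaphorin Sema6D are disrupted; neither the kind of allele nor a driver is given in the labels. Sema6d itself was listed at 0.106 and 0.315 FPKM in the Sema6D-/- libraries and at 0.166 and 0.389 FPKM in the wild type libraries, so its level does not tell the labels apart. The titles start with W where the genotype label reads Sema6D-/- and with K where it reads wild type, and directions here follow the genotype label. Whether the libraries of a label came from different animals or cultures is not stated, so p-values here reflect how far these samples scatter, possibly for technical reasons alone.

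TNF superfamily ligands are membrane or secreted trimers that bind receptors of the TNF receptor superfamily on the same or on neighbouring cells. Many of these receptors recruit TRAF adaptors, which activate the IKK complex; IKK then marks IκB inhibitors for destruction and frees dimers of NF-κB subunits to enter the nucleus. In macrophages this route drives inflammatory genes, and several of its targets, among them IκB genes and the deubiquitinase gene Tnfaip3, feed back to restrain it.

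Each value is FPKM, fragments per kilobase of transcript scaled to library size, as the authors deposited it. It is a level per length, so genes can be compared within a library. Judged from the steps of low values, libraries held about 8200000 to 8900000 fragments, and 1 fragment on a 1 kb transcript stood for 0.112 to 0.123 FPKM. Differences are given as Sema6D-/- minus wild type on the log2(FPKM + 1) scale with their standard error (SE), which understates the change of low genes; adjusted p-values are from limma over the 10115 genes whose mean over the 4 libraries reached 1 FPKM. The cultures had the markers of macrophages. The 10 markers of that list summed to 5585 and 5600.3 FPKM in Sema6D-/- libraries against 6232 and 5933 FPKM in wild type libraries. Lyz2 alone was at 2445 and 2521 FPKM in Sema6D-/- libraries against 3266 and 3133 FPKM in wild type libraries. The lower sum rests on Lyz2, since the remainder of the sum was higher in both Sema6D-/- libraries. Gene by gene, 7 of the 10 differences were below 0 and 3 above 0. Of these 10, Cd14, Itgam, Lyz2 and Msr1 were called lower and Emr1 higher, and Itgax of the dendritic cell list was lower. Among all tested genes 4.91% were called lower and 4.8% higher. The 11 neutrophil markers found summed to 779.6 and 640.2 FPKM in Sema6D-/- libraries against 229 and 220.4 FPKM in wild type libraries, with 6 of the 10 tested higher (4.8% of all tested genes were). The 9 markers of mast cells, basophils and eosinophils summed to 28 and 19.5 FPKM in Sema6D-/- libraries against 6.4 and 6.56 FPKM in wild type libraries, with 4 of 4 tested higher. On each of these 2 lists 3 of the tested markers averaged under 1 FPKM in wild type libraries and passed the filter only through the Sema6D-/- libraries, so these counts are partly set by the filter. Of 8 tested osteoclast markers, Atp6v0d2 was called higher and Dcstamp and Mmp9 lower. T and NK cell markers summed to under 2 FPKM in each library, with Ncr1 and Gzma at 0 in all 4, and Pax5 of the B cell list was also at 0. In these bulk libraries fewer cells of a type and less RNA per cell cannot be told apart, and the part of other cells in the differences below was not tested.

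Of the 64 members, 47 had a mean of at least 1 FPKM and were tested. The libraries labelled Sema6D-/- had more RNA of the TNF receptor gene Tnfrsf1b, the adaptor gene Traf5 and the IKK scaffold gene Ikbkg, and less of the ligand gene Tnfsf8, the death receptor gene Tnfrsf10b, the adaptor gene Traf1 and the inhibitor gene Nfkbie. These 7 genes, 3 higher and 4 lower, are all that passed the threshold, 14.9% of the tested members against 9.72% of all tested genes. Among all genes 4.8% were called higher and 4.91% lower. When genes under 1 FPKM were tested too, none of the 7 passed in limma, with adjusted p from 0.0582 for Nfkbie to 0.272 for Tnfrsf10b. That fit also took in 8606 genes at 0 in all 4 libraries, which show no variance and enter the shared variance estimate. The SE of Nfkbie went from 0.07 to 0.02 there while its adjusted p rose from 0.0125. How far these genes made calls end was not tested, here or in the other results without the filter below. Without a variance trend, Traf5 and Ikbkg did not pass (adjusted p = 0.052 and 0.0624). Libraries of the labels did not overlap for 9 tested members in the higher and 23 in the lower direction, 68.1% of 47, against 56.2% of all tested genes; the lower 23 were 48.9%, against 27.4% of all tested genes. The median difference was -0.11 over the 47, against 0.00 over all tested genes. Since the members were chosen with earlier results of these data known, these shares cannot be read as a result about the family. Of the tested members, 4 (Tnfsf8, Tnfsf4, Tnfrsf10b and Tnfaip8l3) averaged under 1 FPKM in Sema6D-/- libraries only and passed the filter through their wild type values, and 0 passed the other way.

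**Figure D1:**
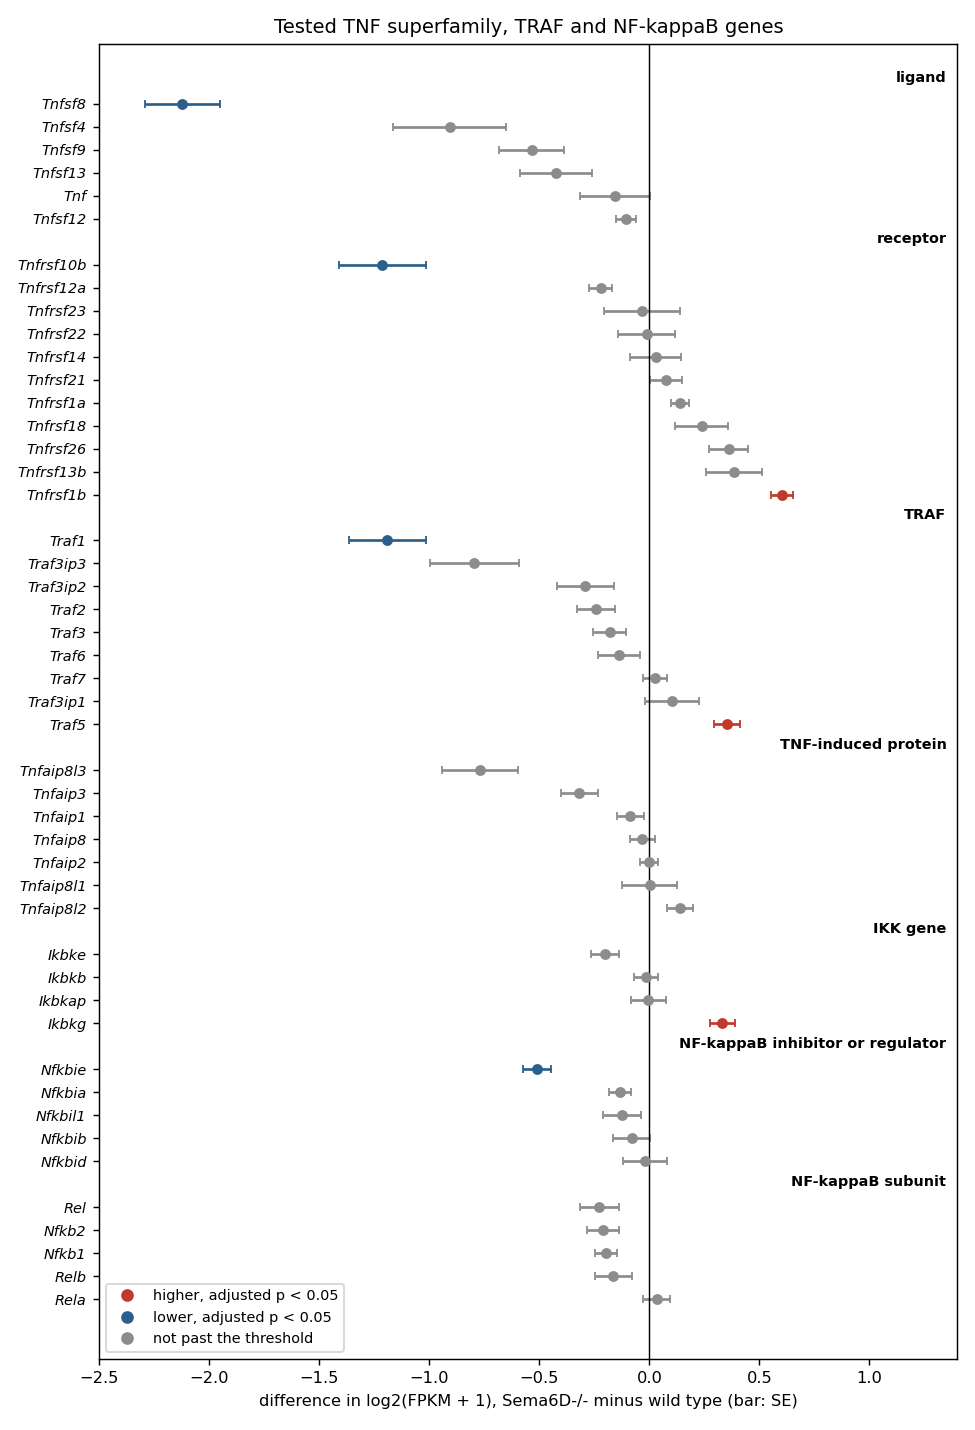
Difference in log2(FPKM + 1), Sema6D-/- minus wild type, for the 47 tested members by role; points are estimates and bars the SE from limma with 2 libraries per label. Coloured points are the 3 members called higher and the 4 called lower; Tnfsf8 lies farthest to the left at -2.12.

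Among the ligands, Tnfsf8 fell. It encodes the CD30 ligand, a membrane protein that binds the receptor encoded by Tnfrsf8. Tnfsf8 was at 0.599 and 1.16 FPKM in the Sema6D-/- libraries, against 7.52 and 6.67 FPKM in the wild type libraries. Both Sema6D-/- values lay far under both wild type values, an 8.08-fold lower mean (0.877 ± 0.39 against 7.09 ± 0.60 FPKM, SD, n = 2 each; difference -2.12 ± 0.17, adjusted p = 0.00357). With the exon length of the GENCODE annotation these levels equal at most about 19 and 36 fragments in Sema6D-/- libraries and 255 and 219 in wild type libraries. The call held without any 1 library, with differences from -2.34 to -1.91 and a highest adjusted p = 0.0219.

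The other tested ligands did not pass. Tnfsf12, the gene of the ligand TWEAK, was the most abundant at 104 and 105 FPKM in Sema6D-/- libraries against 109.8 and 115 FPKM in wild type libraries (difference -0.11 ± 0.05, adjusted p = 0.235). Tnfsf13, the gene of the B cell factor APRIL, was at 23.9 and 23.5 FPKM in Sema6D-/- libraries, against 38.6 and 26.8 FPKM in wild type libraries. Its groups did not overlap, but wild type replicate 1 stood well above the other 3 libraries (difference -0.42 ± 0.16, adjusted p = 0.185). Tnfsf13 came past the threshold only without wild type replicate 2 (-0.68, adjusted p = 0.0133). Tnfsf12 and Tnfsf13 lie 0.685 kb apart on chromosome 11 and share exons with the read-through gene Tnfsfm13, so their levels are uncertain.

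Tnf, the founding cytokine of the family, was at 11.1 and 15.1 FPKM in Sema6D-/- libraries and at 16 and 13.2 FPKM in wild type libraries. The groups overlapped (difference -0.16 ± 0.16, adjusted p = 0.604), and without Sema6D-/- replicate 1 the difference was 0.05. The T cell costimulatory ligands Tnfsf4 (OX40 ligand) and Tnfsf9 were lower in both Sema6D-/- libraries without passing, and both are named after their values were seen. Tnfsf4 was at 0.314 and 0.985 FPKM in Sema6D-/- libraries against 2.51 and 1.61 FPKM in wild type libraries (difference -0.91 ± 0.26, adjusted p = 0.0977). Tnfsf9 was at 1.4 and 1.97 FPKM in Sema6D-/- libraries against 2.76 and 2.98 FPKM in wild type libraries (difference -0.53 ± 0.15, adjusted p = 0.0913).

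Tnfsf15, which encodes the ligand TL1A, was the highest of the 6 ligands under the filter. It was at 0.137 and 0.0944 FPKM in Sema6D-/- libraries, against 1.59 and 1.94 FPKM in wild type libraries, at most about 4 and 3 fragments against 48 and 56. The groups did not overlap, as for Tnfsf8, and in the fit of all genes without the filter its difference was -1.31 ± 0.09 and did not pass (adjusted p = 0.0935). Of the other 5, Tnfsf13b (BAFF), Tnfsf10 (TRAIL) and Tnfsf14 (LIGHT) had means of 0.94, 0.636 and 0.313 FPKM over the 4 libraries, and Tnfsf18 and Tnfsf11 were at or near 0 in each library.

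Among the receptors, Tnfrsf1b rose and Tnfrsf10b fell. Tnfrsf1b encodes TNFR2, the TNF receptor without a death domain, and was the most abundant member of all 64. It was at 289 and 305 FPKM in Sema6D-/- libraries, against 193 and 198 FPKM in wild type libraries. The 2 groups were well apart, a 1.52-fold higher mean (297 ± 12 against 195 ± 3.9 FPKM, SD, n = 2 each; difference 0.60 ± 0.05, adjusted p = 0.00348), and the call held without any 1 library (highest adjusted p = 0.0345). Tnfrsf1a encodes TNFR1, which carries a death domain and binds the same ligand. It was at 114 and 115 FPKM in Sema6D-/- libraries against 103 and 105 FPKM in wild type libraries, higher in both without passing (difference 0.14 ± 0.04, adjusted p = 0.113). Within each library Tnfrsf1b stood at 2.54 and 2.65 times the FPKM of Tnfrsf1a under the label Sema6D-/- and at 1.87 and 1.89 times under wild type. The level of Tnf set against that of Tnfrsf1b was 0.0384 and 0.0493 in Sema6D-/- libraries and 0.083 and 0.0666 in wild type libraries. Tnf itself overlapped between the labels and Tnfrsf1b is a called gene, so this ratio is not a separate result.

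Tnfrsf10b encodes the death receptor that binds TRAIL in mice. It was at 0.629 and 0.571 FPKM in Sema6D-/- libraries, against 3.42 and 2.12 FPKM in wild type libraries. The Sema6D-/- values lay close together and under both wild type values, a 4.61-fold lower mean (0.60 ± 0.041 against 2.77 ± 0.92 FPKM, SD, n = 2 each; difference -1.21 ± 0.20, adjusted p = 0.0234), on at most about 28 and 26 fragments against 166 and 100. The call ended without Sema6D-/- replicate 1 (adjusted p = 0.138) or 2 (0.128), where the differences were -1.24 and -1.19. Tnfrsf22 and Tnfrsf23, which encode decoy receptors for TRAIL in mice, and Tnfrsf26 lie beside each other on chromosome 7 and are similar in sequence, so shared reads leave their levels uncertain. Tnfrsf26 was at 15.6 and 13.8 FPKM in Sema6D-/- libraries against 11.7 and 10.7 FPKM in wild type libraries (difference 0.36 ± 0.09, adjusted p = 0.0695; named after its values were seen, and past the threshold with robust variance estimates). Tnfrsf22 and Tnfrsf23, also named after their values were seen, overlapped between the labels, with differences of -0.01 and -0.03.

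**Figure D2:**
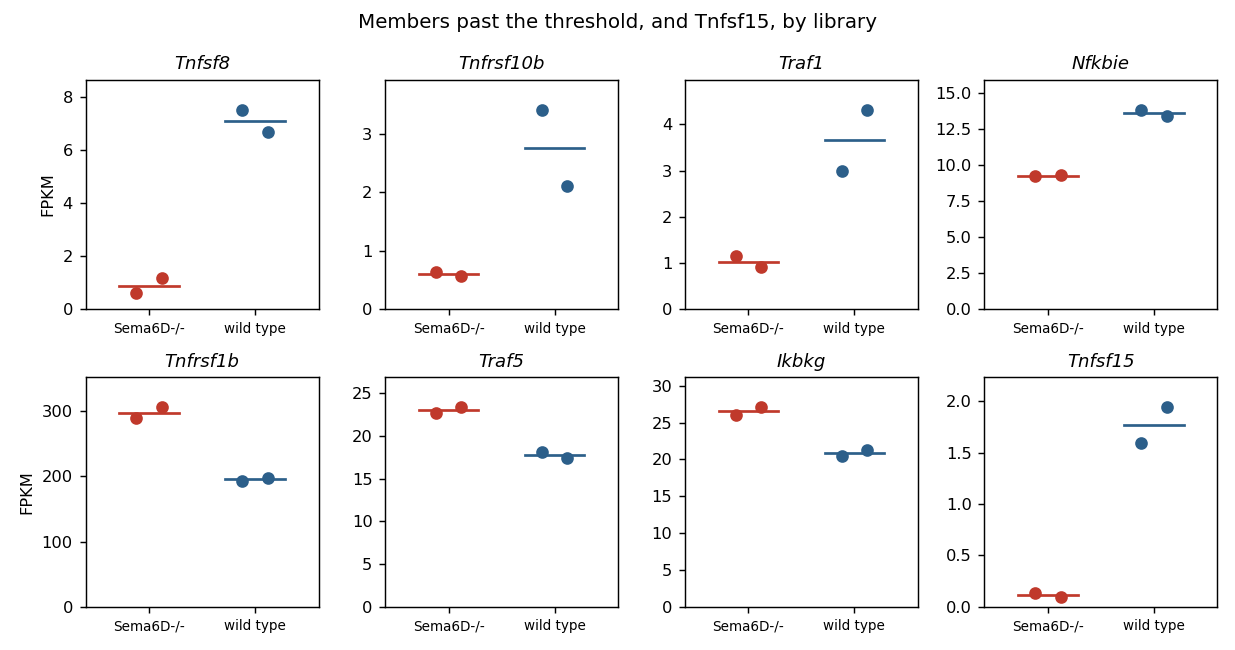
FPKM of the 7 members past the threshold, and of Tnfsf15 under the filter, in each library; each point is a library, the bar is the mean of 2, Sema6D-/- stands left of wild type, and each axis starts at 0. In each of the 8 panels both points of a label lie on the same side of both points of the other label, from 0.599 and 1.16 against 7.52 and 6.67 FPKM for Tnfsf8 to 289 and 305 against 193 and 198 FPKM for Tnfrsf1b.

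The remaining tested receptors did not pass. Tnfrsf12a, the TWEAK receptor Fn14, was at 24.4 and 25.2 FPKM in Sema6D-/- libraries against 29.4 and 28.8 FPKM in wild type libraries (difference -0.22 ± 0.05, adjusted p = 0.0652). Tnfrsf21, the death receptor DR6, was at 15.3 and 15.7 FPKM in Sema6D-/- libraries against 15.4 and 14 FPKM in wild type libraries (adjusted p = 0.577). Tnfrsf13b, a receptor for BAFF and APRIL, Tnfrsf14, the LIGHT receptor HVEM, and Tnfrsf18, the receptor GITR, had differences of 0.38, 0.03 and 0.24. Those of Tnfrsf13b and Tnfrsf18 did not overlap between the labels, and all 3 are named after their values were seen. Of the 8 receptors under the filter, Tnfrsf11b and Tnfrsf4 had the highest mean, 0.35 FPKM each over the 4 libraries, Tnfrsf13c and Tnfrsf19 were listed at 0 in all 4, and the others were at or under 0.651 FPKM in each library. Tnfrsf8, the receptor for the product of Tnfsf8, was at 0.402 and 0.543 FPKM in Sema6D-/- libraries and listed at 0.294 and 0 FPKM in wild type libraries, without overlap, on at most about 16 fragments in any library.

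Among the TRAF genes, Traf5 rose and Traf1 fell. Traf1 encodes a TRAF that lacks the RING domain of the others and is itself a known NF-κB target. It was at 1.14 and 0.902 FPKM in Sema6D-/- libraries, against 2.99 and 4.32 FPKM in wild type libraries. All wild type values lay above all Sema6D-/- values, with a 3.58-fold lower mean under the label Sema6D-/- (1.02 ± 0.17 against 3.66 ± 0.94 FPKM, SD, n = 2 each; difference -1.19 ± 0.18, adjusted p = 0.0181). Without Sema6D-/- replicate 1 or 2 the differences were -1.28 and -1.1 and did not pass (adjusted p = 0.105 and 0.114). Traf5, which acts with Traf2 downstream of several receptors of the family, was at 22.7 and 23.3 FPKM in Sema6D-/- libraries against 18.2 and 17.4 FPKM in wild type libraries. Its labels were well apart with little spread, a 1.29-fold higher mean (difference 0.35 ± 0.06, adjusted p = 0.0237), but the call was lost without any 1 library (adjusted p from 0.0609 to 0.151), with differences from 0.33 to 0.38. Traf5 shares exons with the microRNA gene Mir3473c, which was listed at 0 in all 4 libraries. Within each library Traf5 stood at 3.22 and 3.51 times the FPKM of Traf2 under Sema6D-/-, against 2.08 and 2.22 times under wild type, and Traf1 at 0.162 and 0.136 times under Sema6D-/-, against 0.343 and 0.55 times under wild type.

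The other TRAF genes did not pass. Traf7, a ubiquitin ligase, was the most abundant at 24.3 and 24.1 FPKM in Sema6D-/- libraries and 24 and 23.6 FPKM in wild type libraries (adjusted p = 0.812). Traf6, the TRAF of the Toll-like and IL-1 receptor routes, was at 7.75 and 8.34 FPKM in Sema6D-/- libraries against 8.29 and 9.65 FPKM in wild type libraries (adjusted p = 0.444). Traf2 was at 7.06 and 6.66 FPKM in Sema6D-/- libraries against 8.72 and 7.86 FPKM in wild type libraries (difference -0.24 ± 0.09, adjusted p = 0.165). Traf3, Traf3ip2 and Traf3ip3 had differences of -0.18, -0.29 and -0.80 without overlap between the labels, and Traf3ip1, which encodes a protein of cilia, had 0.10 with overlap; these 4 are named after their values were seen. Traf4 lay under the filter with a mean of 0.415 FPKM.

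Of the 7 tested TNF-induced proteins, 0 passed in limma, with 2 lower and 0 higher at an unadjusted p under 0.05; with robust variance estimates 1 was lower, Tnfaip8l3. Over all tested genes 25.1% had an unadjusted p under 0.05. Tnfaip2 was at 113 and 114 FPKM in Sema6D-/- libraries and at 112 and 115 FPKM in wild type libraries, a difference of -0.00 ± 0.04. Tnfaip8l2, which encodes the immune regulator TIPE2, was at 103 and 108 FPKM in Sema6D-/- libraries against 99.9 and 92.1 FPKM in wild type libraries (difference 0.14 ± 0.06, adjusted p = 0.212), and Tnfaip8 at 61.1 and 60.0 FPKM in Sema6D-/- libraries against 59.3 and 64.6 FPKM in wild type libraries. Tnfaip3, the gene of the deubiquitinase A20, was at 6.91 and 6.57 FPKM in Sema6D-/- libraries, against 8.26 and 9.06 FPKM in wild type libraries. It was lower in both without passing (difference -0.32 ± 0.08, adjusted p = 0.0798). Tnfaip8l3 was at 0.654 and 0.526 FPKM in Sema6D-/- libraries against 2.04 and 1.41 FPKM in wild type libraries, just short of the threshold (difference -0.77 ± 0.17, adjusted p = 0.0535); both are named after their values were seen. Tnfaip6 was at or near 0 in every library.

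Among the IKK genes, Ikbkg rose. It encodes NEMO, the regulatory subunit that couples IKK to upstream signals. Ikbkg was at 26 and 27.1 FPKM in Sema6D-/- libraries, against 20.5 and 21.3 FPKM in wild type libraries. The labels did not overlap, with a 1.27-fold higher mean (26.5 ± 0.75 against 20.9 ± 0.56 FPKM, SD, n = 2 each; difference 0.33 ± 0.06, adjusted p = 0.0277). The call was lost without any 1 library (adjusted p from 0.0694 to 0.161), with differences from 0.30 to 0.36, and with the title number as a replicate block (adjusted p = 0.0526), as was that of Traf5 (0.0554). Exons of Ikbkg overlap those of G6pdx on the other strand, which was at 143 and 150.4 FPKM in Sema6D-/- libraries and 165 and 158 FPKM in wild type libraries; the libraries were strand-specific but whether counting used the strand is not stated, so reads of the pair may be mixed. The catalytic subunit gene Ikbkb was at 26.2 and 25.2 FPKM in Sema6D-/- libraries and at 25.8 and 26.3 FPKM in wild type libraries (difference -0.02 ± 0.05), and Chuk, the gene of the other catalytic subunit, at 19.3 and 18.7 FPKM in Sema6D-/- libraries against 19.7 and 20.9 FPKM in wild type libraries (adjusted p = 0.433). Ikbke, the gene of a related kinase of the interferon route, was at 22.5 and 21.5 FPKM in Sema6D-/- libraries against 26.4 and 24.5 FPKM in wild type libraries (difference -0.20 ± 0.06, adjusted p = 0.129). Ikbkap, whose product is now placed in the Elongator complex, was at 6.49 and 6.29 FPKM in Sema6D-/- libraries against 6.35 and 6.47 FPKM in wild type libraries.

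Of the 5 tested NF-κB inhibitors and regulators, Nfkbie fell. It encodes IκBε, an inhibitor that holds NF-κB dimers in the cytoplasm. Nfkbie was at 9.24 and 9.3 FPKM in Sema6D-/- libraries, against 13.9 and 13.4 FPKM in wild type libraries. Replicates were close and the labels far apart, a 1.47-fold lower mean under Sema6D-/- (difference -0.51 ± 0.07, adjusted p = 0.0125). The call held without wild type replicate 2 (adjusted p = 0.047) and ended without Sema6D-/- replicate 1 (0.113), Sema6D-/- replicate 2 (0.0943) or wild type replicate 1 (0.056), with differences from -0.53 to -0.49. Nfkbia, the gene of the prototype inhibitor IκBα, was at 27.7 and 28 FPKM in Sema6D-/- libraries against 30.5 and 30.7 FPKM in wild type libraries, lower in both without passing (difference -0.13 ± 0.05, adjusted p = 0.185). Nfkbie thus stood at 0.334 and 0.332 times the FPKM of Nfkbia under Sema6D-/- and at 0.454 and 0.437 times under wild type. Nfkbib (IκBβ) and Nfkbid, the gene of a nuclear IκB protein, overlapped between the labels, with differences of -0.08 ± 0.08 and -0.02 ± 0.10. Nfkbil1 had -0.13 ± 0.09, and Nfkbiz lay under the filter with a mean of 0.763 FPKM.

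Of the 5 NF-κB subunit genes, 0 passed in limma, and the same count was found in each of the 13 alternatives; 3 were lower and 0 higher at an unadjusted p under 0.05, where 12.2% of all tested genes were lower. Both Sema6D-/- libraries lay under both wild type libraries for Nfkb1, Nfkb2, Rel and Relb, as they did for 27.4% of all tested genes. Nfkb1, the gene of p105 and p50, was at 33 and 32.6 FPKM in Sema6D-/- libraries against 37.3 and 38.3 FPKM in wild type libraries (difference -0.20 ± 0.05, adjusted p = 0.0725). Nfkb2, the gene of p100 and p52, was at 13.8 and 14.5 FPKM in Sema6D-/- libraries against 17.3 and 15.8 FPKM in wild type libraries (difference -0.21 ± 0.07, adjusted p = 0.149). Rel, a transactivating subunit of lymphoid and myeloid cells, was at 10.5 and 11.9 FPKM in Sema6D-/- libraries against 12.7 and 13.8 FPKM in wild type libraries (difference -0.23 ± 0.09, adjusted p = 0.191). Relb, the partner of p52, was at 7.79 and 7.51 FPKM in Sema6D-/- libraries against 8.23 and 9.18 FPKM in wild type libraries (difference -0.16 ± 0.08, adjusted p = 0.302). Rela, the gene of p65, was at 30.2 and 33 FPKM in Sema6D-/- libraries and at 30.6 and 31 FPKM in wild type libraries, where the groups overlapped (difference 0.03 ± 0.06, adjusted p = 0.784). Summed over the 5 subunits, the level was 95.2 and 99.5 FPKM under Sema6D-/- and 106 and 108 FPKM under wild type. The 6 inhibitors and regulators summed to 74.1 and 79.2 FPKM in Sema6D-/- libraries against 86.4 and 85.1 FPKM in wild type libraries. The 19 receptors summed to 483 and 500.0 FPKM in Sema6D-/- libraries against 379.9 and 379.6 FPKM in wild type libraries. Most of that gap lay in Tnfrsf1b alone, at 289 and 305 FPKM in Sema6D-/- libraries against 193 and 198 FPKM in wild type libraries. Of 11 tested receptors, 1 was called higher and 1 lower.

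**Figure D3:**
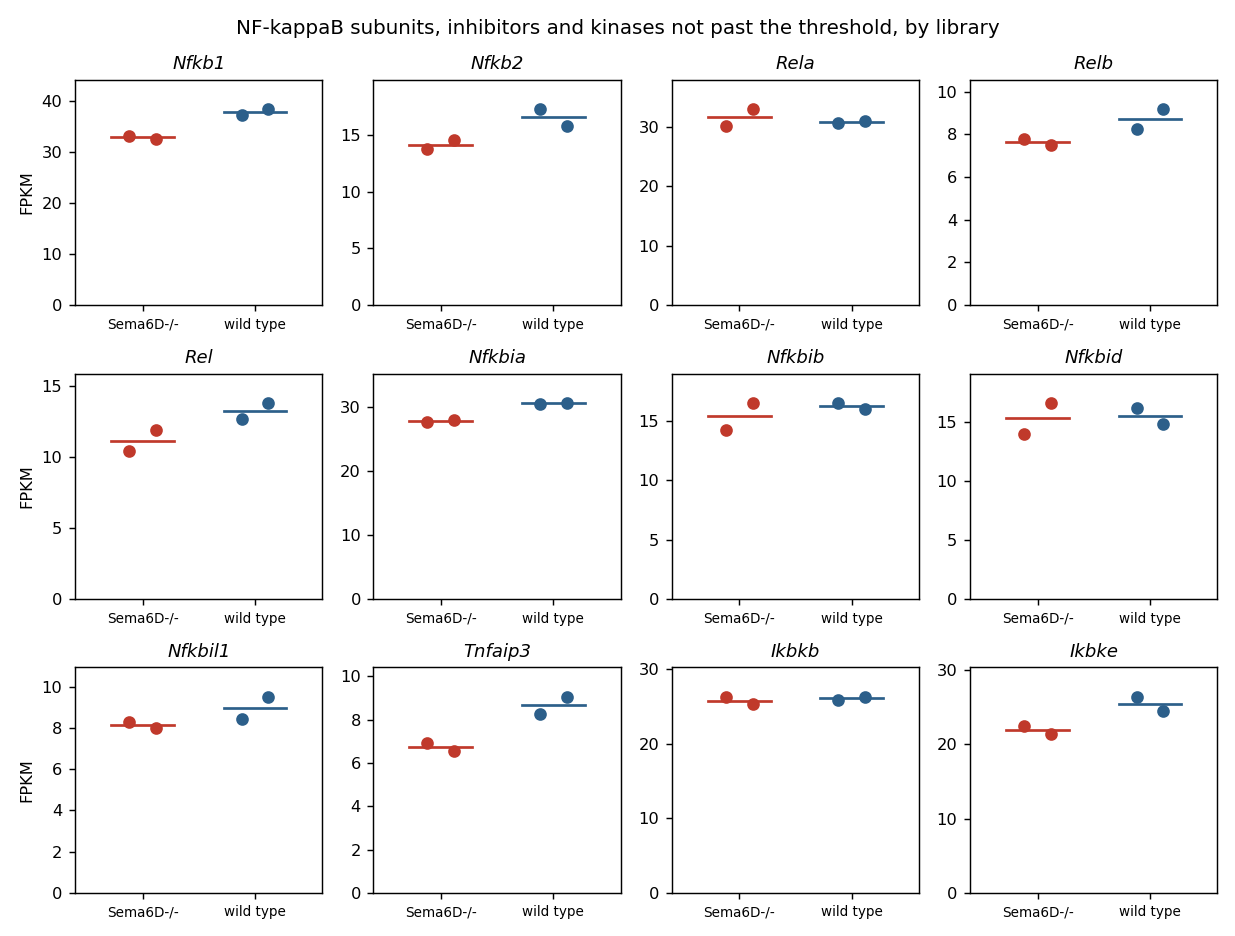
FPKM by library of 12 members (NF-κB subunits, inhibitors and kinases, and Tnfaip3) that did not pass the threshold; each point is a library, the bar is the mean of 2, Sema6D-/- stands left of wild type, and each axis starts at 0. Nfkb1, Nfkb2, Rel, Relb, Nfkbia and Tnfaip3 are lower in both Sema6D-/- libraries by small amounts (differences of -0.13 to -0.32), and Rela, Nfkbib, Nfkbid and Ikbkb overlap.

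Since several of these genes are known NF-κB targets, the promoters of the members were searched for the κB consensus, a motif of 10 bases, on both strands. RefSeq windows of GRCm38.p6, from 250 bases before to 50 after a start, matched 50 of the 64 members. A match was found for 12 of the 50 (24%), against 2581 of 27025 genes (9.55%). The 12 included 3 of 5 inhibitors and regulators and 2 of 3 subunits, but 0 of 9 ligands. Of the called genes with an entry, 1 of 3 lower genes (Nfkbie) and 0 of 3 higher genes held a match. To show what such a match looks like, 3 stretches are printed that lie wholly before the annotated gene: that of Nfkbie, the called gene with a match, that of the subunit gene Rel, and the distal match of Tnfaip3. Each runs 5′ to 3′ on the gene's strand, with the matched bases in capitals; an overlapping match in Rel, shifted by 1 base, is not marked.
Nfkbie: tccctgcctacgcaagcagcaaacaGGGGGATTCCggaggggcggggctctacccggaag
Rel: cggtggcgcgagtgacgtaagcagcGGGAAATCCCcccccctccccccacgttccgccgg
Tnfaip3: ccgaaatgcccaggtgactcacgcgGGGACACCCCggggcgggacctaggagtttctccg
The Nfkbie stretch lies at chr17:45555569-45555628 on the plus strand, the Rel stretch at chr11:23771027-23771086 and the Tnfaip3 stretch at chr10:19015501-19015560, both on the minus strand. Counted from the start, the first matched base is at -106 in Nfkbie, -92 in Rel and -125 in Tnfaip3. A match describes letters and not a site in use, and of these 3 genes Nfkbie alone passed the threshold; a window without a match says only that these letters were not in it.

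**Figure D4:**
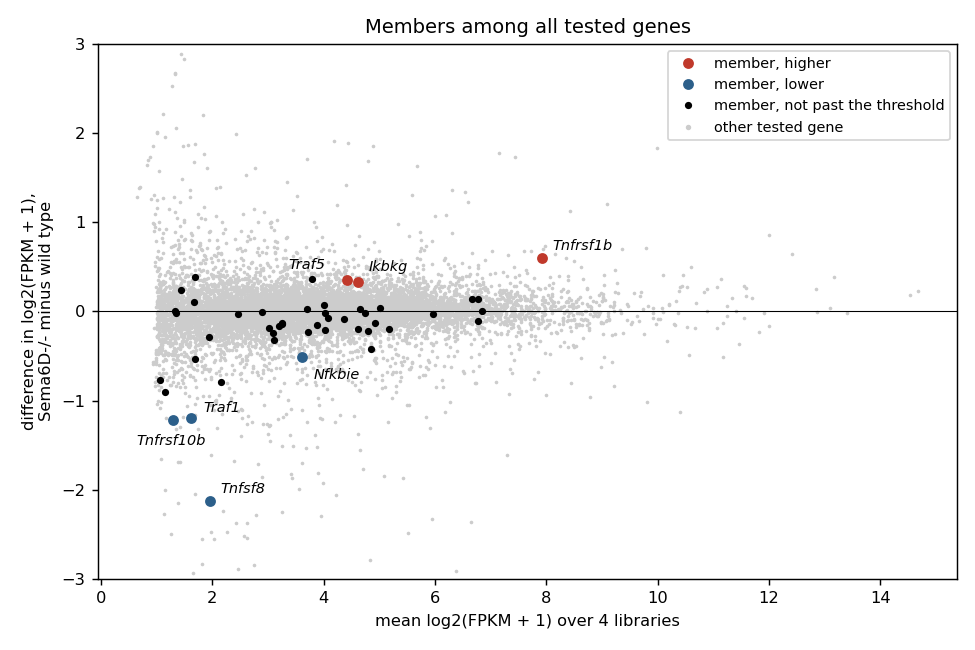
Difference in log2(FPKM + 1), Sema6D-/- minus wild type, against the mean log2(FPKM + 1) over 4 libraries for all 10115 tested genes (grey) and the 47 tested members (black, or coloured where past the threshold). The vertical axis ends at 3 in either direction and leaves 35 other genes outside; Tnfrsf1b is the called member with the highest level and Tnfsf8 the one with the largest difference.

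The members were also placed on the genome (RefSeq genes of GRCm38, the assembly that mm10 names). Chromosome 4 held the most, 10 members, of which 5 were tested. Tnfsf15 (63724600 to 63745059) and Tnfsf8 (63831202 to 63861508) are neighbours there, 86.1 kb apart with 0 other listed genes between them, and both were lower in both Sema6D-/- libraries. Tnfrsf1b (145212368 to 145246870) lies 20.3 kb from Tnfrsf8, which was under the filter. The receptor genes Tnfrsf14, Tnfrsf4 and Tnfrsf18 follow further along, and of these the 2 tested did not pass. The other called members lie apart from each other: Tnfrsf10b on chromosome 14 (69767472 to 69784411), Traf1 on chromosome 2 (34941750 to 34961812), Nfkbie on chromosome 17 (45555700 to 45563169), Traf5 on chromosome 1 (191997203 to 192092599) and Ikbkg on chromosome X (74393233 to 74456792).

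Genes of the pathway outside the symbol rule were read from 5 lists with 135 genes between them, of which 109 were tested. Of these 6 were higher and 16 lower, 20.2% against 9.72% of all tested genes, with a median difference of -0.06. All 6 higher and 12 of the 16 lower genes are on the list of NF-κB target genes. The other called genes were Tank, Rnf31, Fas and Ripk2. All 5 lists were chosen with earlier results of these data known. When genes under 1 FPKM were tested too, 3 pathway genes passed, and of the 22 called here 1 was among them, Ccl5. On the list of family genes with other symbols, 3 of 15 were tested and 1 was lower: Fas, the death receptor of the Fas ligand, was at 2.3 and 2.95 FPKM in Sema6D-/- libraries against 5.08 and 5.56 FPKM in wild type libraries (difference -0.81 ± 0.13, adjusted p = 0.0207). Fas did not pass in limma without the filter (adjusted p = 0.238). Its call was also lost without any 1 library, with differences from -0.94 to -0.68. Cd40 and Ltbr, receptors of the same family, had differences of -0.36 and 0.08 and did not pass (adjusted p = 0.187 and 0.474).

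Of 38 genes of the TNF receptor signalling complex, all tested, 4 were lower and 0 higher. The share called in either direction was 10.5%, against 9.72% of all tested genes. The share called lower was also 10.5%, against 4.91% of all tested genes. This list too was chosen with earlier results of these data known. Tank, the gene of a TRAF-binding scaffold, was at 29.2 and 31.1 FPKM in Sema6D-/- libraries against 42.3 and 45.6 FPKM in wild type libraries (difference -0.53 ± 0.06, adjusted p = 0.0102). Rnf31, the catalytic subunit gene of the linear ubiquitin ligase, was at 12.3 and 11.9 FPKM in Sema6D-/- libraries against 16.5 and 16.3 FPKM in wild type libraries (difference -0.41 ± 0.06, adjusted p = 0.0197). Birc3 and Cflar, genes of the inhibitors cIAP2 and cFLIP, were lower by -0.35 ± 0.07 and -0.28 ± 0.06 (adjusted p = 0.0346 and 0.046). In fits without 1 library, 0 or 1 of these 4 passed. Of 18 tested genes of other receptor routes into NF-κB, 1 was lower, 5.56% against the 4.91% of all tested genes called lower. It was the kinase gene Ripk2 (22.2 and 24 FPKM in Sema6D-/- libraries against 29.8 and 28.2 FPKM in wild type libraries, adjusted p = 0.0426). Ripk2, Birc3 and Cflar did not pass without a variance trend or with a replicate block. The call of Ripk2 was also lost without any 1 library, with differences from -0.37 to -0.26. Of 20 accessory factors 0 passed in limma, with 2 higher and 2 lower at an unadjusted p under 0.05. These were 20% of the list, against 25.1% of all tested genes. The same count of 0 was found in each of the 9 alternatives that kept every library.

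The list of NF-κB target genes, in which 5 genes also stand on another list, had 6 of 35 tested genes higher and 12 lower. That is 51.4% against 9.72% of all tested genes, with a median difference of -0.22. The list was chosen with earlier results of these data known, so this share cannot be read as a result about NF-κB targets. The chemokine gene Ccl5 was at 19.1 and 17.7 FPKM in Sema6D-/- libraries against 111 and 104 FPKM in wild type libraries, the lectin gene Clec4e at 0.809 and 0.551 FPKM in Sema6D-/- libraries against 8.23 and 8.34 FPKM in wild type libraries, the growth factor gene Csf1 at 2.94 and 2.85 FPKM in Sema6D-/- libraries against 10.7 and 13 FPKM in wild type libraries and the transporter gene Slc2a6 at 27.6 and 33.3 FPKM in Sema6D-/- libraries against 62.7 and 64.6 FPKM in wild type libraries. Clec4e averaged under 1 FPKM in Sema6D-/- libraries and passed the filter only through wild type.

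The 6 higher targets, named after their values were seen, were Lcn2, Cd83, Gadd45b, Ninj1, Irf1 and Ccnd1. The dendritic and B cell activation marker gene Cd83 was at 22 and 19.6 FPKM in Sema6D-/- libraries against 12.5 and 12.5 FPKM in wild type libraries (difference 0.69 ± 0.08, adjusted p = 0.00871). The stress response gene Gadd45b was at 63.1 and 60.0 FPKM in Sema6D-/- libraries against 38 and 42.7 FPKM in wild type libraries (difference 0.60 ± 0.07, adjusted p = 0.00963). Ninj1, whose product takes part in the rupture of dying cells, was at 305 and 317 FPKM in Sema6D-/- libraries against 249.5 and 248 FPKM in wild type libraries. In these genes, as in Irf1 and the cyclin gene Ccnd1 (differences of 0.28 ± 0.05 and 0.32 ± 0.07), both Sema6D-/- libraries lay above both wild type libraries. Lcn2 was at 22.5 and 22.4 FPKM in Sema6D-/- libraries against 7.49 and 5.03 FPKM in wild type libraries and is also on the neutrophil marker list, whose summed level was higher in the same libraries; the part of neutrophils in it was not tested. Without Sema6D-/- replicate 1, 0 targets were higher and 4 lower, and without Sema6D-/- replicate 2, 1 was higher and 5 were lower.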

How the data were processed

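The deposited values are FPKM per gene symbol for each of 4 libraries, made from strand-specific libraries per the labels' protocols. Per the submitters' processing notes the tools were TopHat2 2.0.13, Bowtie2 2.2.3, SAMtools 0.1.19 and Cuffnorm 2.2.1 with build mm10; the annotation, the strand setting and the handling of reads with several matches were not given in the sources used here. The members, gene lists and tests were chosen with earlier results of these data known, and 1 symbol fitting the rule is not reported here. The fit was limma 3.58.1 (R 4.3.3) with a variance trend on log2(FPKM + 1), over genes with a mean of 1 FPKM or more, two-sided, with Benjamini-Hochberg adjustment and a threshold of 0.05. The script was tested on simulated data. Fragment numbers are estimates from the library depth and the exon length in GENCODE, so they cover counting error only. Named were members past the threshold, the 3 others tested with the highest mean per role, Tnf, Nfkbia and the NF-κB subunits, the highest member under the filter per role, and up to 4 called genes per list. Alternatives were 2 pseudocounts, 2 filters, 2 scalings, 2 variance models, a replicate block and leaving out each library.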

Additional observations from a re-analysis of the deposited data

How the results depend on the processing

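Of 387 refits of 30 named members under 13 alternatives, 348 kept direction and side of the threshold, 26 lost the call, 1 gained it and 12 changed sign. These 30 leave out members named only after their values were seen, of which Tnfrsf26 and Tnfaip8l3 gained a call with robust variance estimates. Only a called member can lose a call, so all 26 losses fell on called members. The other members mostly stayed uncalled, which counts as kept. With all 4 libraries, Traf5 and Ikbkg kept their call in 6 of 9 alternatives. Tnfrsf1b and Nfkbie kept it in 8 of 9, and Tnfsf8, Traf1 and Tnfrsf10b in 7 of 8. Without the filter on low values, 0 members were higher and 0 lower (5 and 12 at an unadjusted p under 0.05), against 115 and 99 of all genes and 0 and 3 of the pathway genes (Ccl5, with Il6 and Nos2, which are under the filter). With the filter at 5 FPKM, 1 member was lower, since the other 3 lie under it. Without a variance trend, 1 member was higher, as were 261 of all genes and 3 pathway genes, and 327 of all genes and 10 pathway genes were lower. The title numbers did not pair the libraries (correlation of same-numbered deviations -0.0183), and a replicate block gave 1 member higher and 4 lower, and 300 and 337 of all genes. Leaving out 1 library gave 72 to 276 genes higher and 87 to 290 lower, 1 to 1 members higher and 1 to 5 lower, and 0 to 6 pathway genes higher and 4 to 11 lower; a lone library is then assumed to vary like the other label. Tnfsf8 and Tnfrsf1b passed in all 4 such fits. Among the 30, differences that changed sign were all of uncalled members. They were Ikbkap (0.00635 with quantile normalization and -0.0236 to 0.014 over libraries left out), Ikbkb (-0.0443 to 0.00983), Nfkbib (-0.179 to 0.0196), Nfkbid (-0.137 to 0.0962), Rela (-0.0284 to 0.0956), Tnf (-0.361 to 0.0491), Tnfaip2 (-0.0182 to 0.0157) and Tnfaip8 (-0.0918 to 0.0288). Outside the 30, the uncalled Tnfrsf14 (-0.09 to 0.15), Tnfrsf22 (-0.08 to 0.05), Tnfrsf23 (-0.23 to 0.16) and Tnfaip8l1 (-0.04 to 0.04) also changed sign over libraries left out. The cause was not tested. Members near 1 FPKM rest on few fragments, and each label has 2 libraries.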
